A study of Mus musculus with 12 samples.

Results

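Breakdown of the branched-chain amino acids leucine, isoleucine and valine was followed through 10 mouse genes: the transaminases Bcat1 and Bcat2, the subunits Bckdha, Bckdhb and Dbt of the branched-chain keto acid dehydrogenase, its kinase Bckdk and its phosphatase Ppm1k, and the leucine enzymes Ivd, Mccc1 and Mccc2. Members were found by symbol: every probe set whose only gene symbol in the platform annotation was one of the 10 was taken, which gave 18 of 45037 probe sets, for 10 of 18193 genes. The genes themselves were chosen from an earlier analysis of these same arrays, in which their log2 changes were known, so their values and calls below are a description and no p-value is printed for them. All cells were TSC2-/- mouse embryonic fibroblasts grown in DMEM with 10% CCS. The Tsc2 product normally holds the kinase mTOR in check, and per the labels all 12 arrays hold cells of this genotype. In 1 experiment they received vehicle (DMSO) or 20 nM rapamycin, an mTOR inhibitor, for 14 h. In the other, confluent cells were exposed for 10 h to an adenovirus that encodes GFP or PGC-1alpha and were harvested 14 h later. PGC-1alpha is a coactivator of transcription that induces genes of mitochondrial respiration in several tissues. Each of the 4 groups had 3 Affymetrix MOE430 v2 arrays, described in the series text as biological triplicates. Per the series title, the study asked how the mTOR pathway controls mitochondrial genes through YY1 and PGC-1alpha.

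Transaminases first turn leucine, isoleucine and valine into branched-chain keto acids. Bcat1 is the cytosolic form and Bcat2 the mitochondrial form, which most adult tissues use. The keto acids are then decarboxylated by the mitochondrial branched-chain keto acid dehydrogenase. In that complex Bckdha and Bckdhb encode the alpha and beta chains of the decarboxylase, Dbt the transacylase core, and Dld a dehydrogenase shared with the pyruvate and oxoglutarate complexes. Bckdk switches the complex off by phosphorylating the Bckdha chain, and Ppm1k removes that phosphate. Loss of the complex causes maple syrup urine disease. Leucine is also a signal that activates mTOR complex 1, the form of the kinase that rapamycin inhibits.

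Values are intensities per probe set, normalised by the authors with RMA separately for each experiment, so levels are compared only inside an experiment and never between probe sets. A change is the difference in mean log2 intensity, given with limma's standard error (SE), and a gene is said to have risen or fallen where its p-value, adjusted by Benjamini-Hochberg over all 45037 probe sets, was under 0.05. For a gene with several probe sets the brightest stands for it. Array medians lay between 77.5 and 81.0. GFP replicate 3 stood apart: the SD of its log2 differences was 0.142 to 0.151 against the PGC-1alpha arrays and 0.155 and 0.167 against the other GFP arrays, so values without it are given beside the results it moves. Of 10 fibroblast markers, 6 were over 10 times the array median, while 0 markers of macrophages, endothelium, epithelium, muscle, adipocytes or hepatocytes were. Yet the epithelial markers Epcam and Krt18 had group means of 655 to 771 and 388 to 571. Among the fibroblast markers under the cut, Pdgfrb was at 220 to 352 and Thy1 at 277 to 335. Postn was at 233 to 391 and Lum at 36.1 to 38.9. The cut thus does not show that epithelial signal was absent, and the source of that signal was not tested. The summed intensity of 6 epithelial markers was higher on every rapamycin array (1624 to 1682) than on every vehicle array (1370 to 1433), as was that of 6 macrophage markers (711.8 to 729 against 639.3 to 664.7) and that of the 10 fibroblast markers (55360 to 59380 against 54080 to 55250). The sum of 6 muscle markers was lower on every rapamycin array (635.4 to 647.0 against 650.1 to 708.5). Only 1 of the 6, Des, passed the threshold (-0.23), and 3 of the 6 had changes above 0. The part of these lists in the changes below was not tested. The Gapdh 3'/5' signal ratio, a sign of RNA quality, was 0.807 to 0.826 on rapamycin arrays and 0.84 to 0.861 on vehicle arrays, and its part was not tested. It was 0.894 to 0.905 on PGC-1alpha arrays and 0.865 to 0.879 on GFP arrays. The same ratio overlapped between rapamycin and vehicle arrays for beta-actin (1.3 to 1.32 and 1.29 to 1.33) and for the transferrin receptor (3.81 to 4.17 and 3.56 to 3.89). Ppargc1a itself, read by probe set 1460336_at, was at 81.0, 81.0 and 101 on the GFP arrays and at 2295, 2183 and 2554 on the PGC-1alpha arrays. The label of the PGC-1alpha arrays was thus borne out by that probe set.

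With rapamycin the subunits of the dehydrogenase moved in opposite directions. Bckdha rose 2.39-fold, while Bckdhb fell 1.50-fold and Dbt fell 1.74-fold. Bcat1 fell 2.02-fold, and Mccc2 fell 1.17-fold. Bckdk, Ppm1k, Bcat2, Ivd and Mccc1 did not pass the threshold. In all, 1 of the 10 genes rose and 4 fell, against 11.3% of all genes that rose and 18% that fell. By probe set, 1 of 18 rose and 6 fell, against 11.5% and 14% of all probe sets. Since the genes were chosen with these values known, the counts are not set against the background as a result. The median change was -0.13 over the 10 genes and -0.01 over all genes. Scaling the authors' RMA values further on bacterial control probe sets shifted the median change of all probe sets to -0.19. This scaling moved the calls from 5168 raised and 6301 lowered to 1448 and 18556, of 45037 probe sets. Under it 7 of the 10 genes fell, Ppm1k, Bcat2 and Ivd being added, and Bckdha still rose, by 1.07 on the log2 scale. In bulk RNA such as this, fewer cells of a type and less RNA per cell cannot be told apart.

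The promoters of the 2 decarboxylase chains, whose transcripts moved apart, and of Bcat1, the member with the largest fall, are shown as the 250 bases before the annotated start (RefSeq, GRCm38.p6). Capitals mark matches on either strand to 6 short motifs: GCCATNTT for YY1, AGGTCA for a nuclear receptor half-site, TGATGNAA for ATF4, CACGTG for an E-box, GTAAACA for FOXO factors and CCAAT for a CCAAT box.
Bckdha, chr7:25658762-25659011, minus strand: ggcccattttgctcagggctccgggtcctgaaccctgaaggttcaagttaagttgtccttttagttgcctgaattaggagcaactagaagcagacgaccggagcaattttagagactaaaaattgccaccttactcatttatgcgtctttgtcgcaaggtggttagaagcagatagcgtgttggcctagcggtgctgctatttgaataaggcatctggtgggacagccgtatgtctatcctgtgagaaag
Bckdhb, chr9:83924887-83925136, plus strand: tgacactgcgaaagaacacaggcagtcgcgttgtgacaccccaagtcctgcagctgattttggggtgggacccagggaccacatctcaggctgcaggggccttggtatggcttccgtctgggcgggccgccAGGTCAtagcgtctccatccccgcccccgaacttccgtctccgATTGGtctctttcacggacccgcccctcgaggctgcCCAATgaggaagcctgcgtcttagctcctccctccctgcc
Bcat1, chr6:145076158-145076407, minus strand: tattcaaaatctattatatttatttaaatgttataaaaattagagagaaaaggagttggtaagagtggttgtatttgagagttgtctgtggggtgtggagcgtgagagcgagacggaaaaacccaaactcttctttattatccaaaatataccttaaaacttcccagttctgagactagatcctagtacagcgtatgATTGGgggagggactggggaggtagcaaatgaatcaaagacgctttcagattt
The Bckdha window held no match to any of the 6 motifs. The Bckdhb window held AGGTCA with its first base at -119 from the start and CCAAT at -76 and -40, the first of these on the opposite strand. The Bcat1 window held 1 CCAAT on the opposite strand at -53, and a second annotated start of Bcat1, on the same chromosome, had AGGTCA at -174 and no CCAAT. A second annotated start of Bckdhb (window chr9:83948531-83948780) had no match to the 6 motifs. The arrays do not say which start was used. Among 32851 promoter windows of this length, CCAAT occurred in 33.8%, AGGTCA in 14.0%, CACGTG in 6.02%, GCCATNTT in 3.91%, TGATGNAA in 3.45% and GTAAACA in 3.17%. GC content was 47.6% for Bckdha, 63.2% and 36.4% for the first and second starts of Bckdhb and 37.6% and 56.4% for those of Bcat1, against a median of 52.4% over all windows. The motifs were settled after these windows had been read, with shorter letters for YY1 and the receptor half-site than in a first search and with CCAAT added, and a match is a description of letters, not of binding. Dbt was not among the promoters used here.

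The alpha chain of the decarboxylase stood clear of the other subunits. Bckdha, read by 1 probe set (1416647_at), was at 245, 234 and 263 on the vehicle arrays and at 547, 637 and 592 on the rapamycin arrays. All rapamycin arrays lay above all vehicle arrays, with a gap wider than the spread within either group. The log2 change was 1.26 (SE 0.07, 95% interval 1.11 to 1.40), the 9th highest of 18193 genes. Mean intensity was 247 ± 14.6 with vehicle and 592 ± 44.8 with rapamycin (SD, n = 3).

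The beta chain and the transacylase went the other way. Bckdhb, also read by 1 probe set (1427153_at), was at 546, 536 and 526 on the vehicle arrays and at 336, 390 and 351 on the rapamycin arrays. The groups did not overlap, and the log2 change was -0.58 (SE 0.06, 95% interval -0.72 to -0.45), the 475th lowest of all genes. Dbt (1449118_at) was at 268, 295 and 265 with vehicle and at 132, 177 and 172 with rapamycin. Rapamycin replicate 1 was the lowest Dbt array, and the other rapamycin arrays were still below every vehicle array. Its log2 change was -0.80 (SE 0.10, 95% interval -1.002 to -0.59), the 142nd lowest. Each of these 3 genes rests on a single probe set, so no second probe set checks its direction. Bckdha, Bckdhb and Dbt kept their directions and stayed past the threshold in all 13 alternative fits, over which their log2 changes ran from 1.07 to 1.32, from -0.77 to -0.51 and from -0.98 to -0.66.

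**Figure D1:**
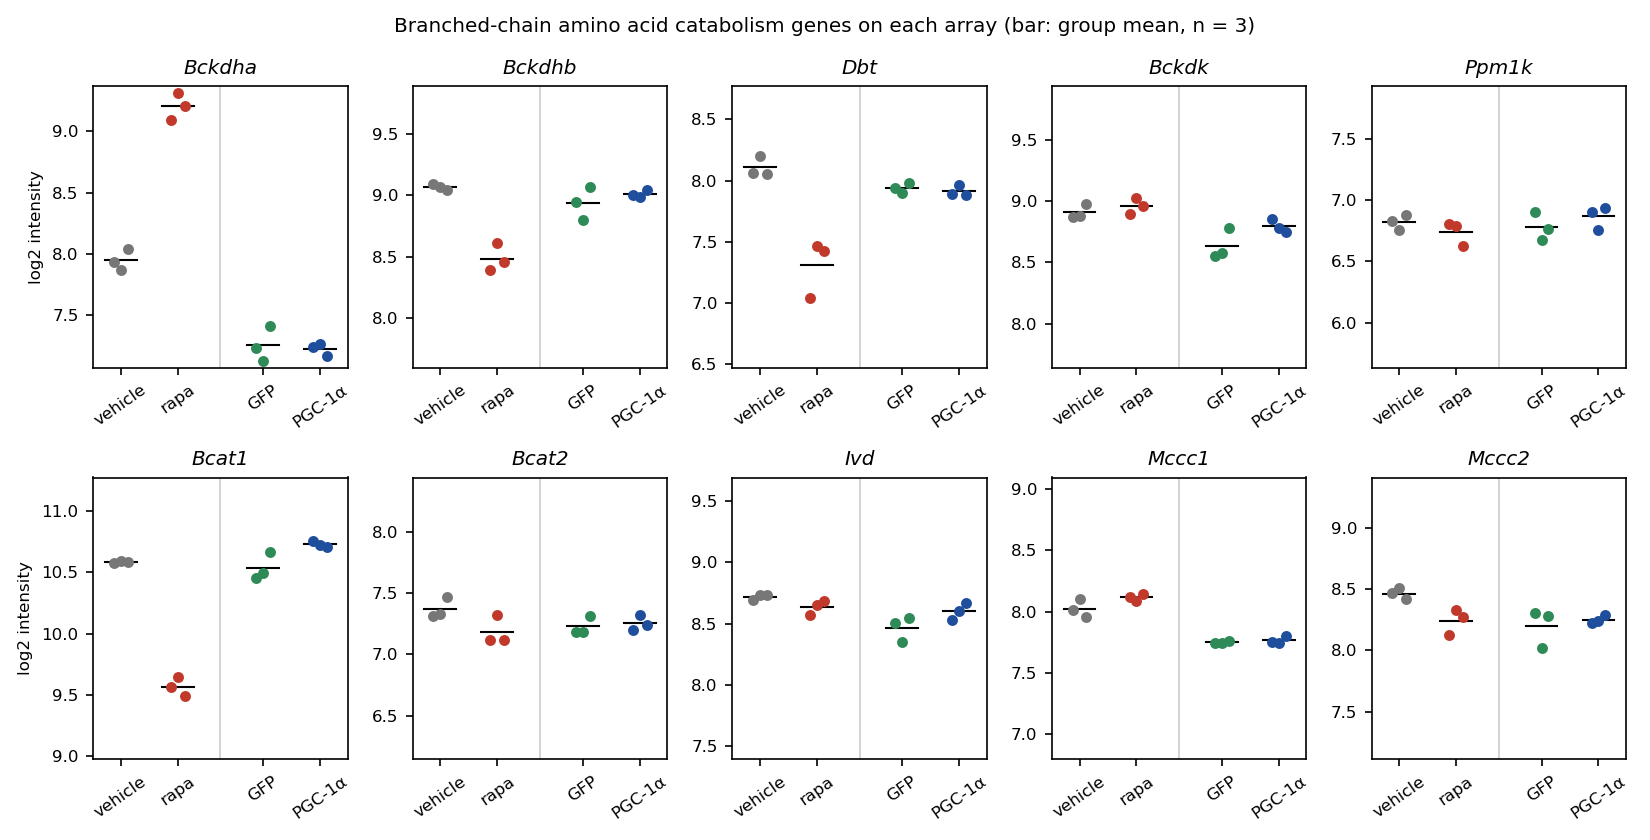
Log2 intensity (vertical axis) of the brightest probe set of each of the 10 genes on each of the 12 arrays, 1 panel a gene, with a bar at each group mean (n = 3); every panel spans the same log2 range, and a grey line parts the 2 experiments, which were normalised apart. Bckdha points are higher and Bckdhb, Dbt and Bcat1 points lower with rapamycin than with vehicle without overlap, while the GFP and PGC-1alpha points lie close together in every panel.

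The kinase and the phosphatase that set the activity of the complex changed little. Bckdk (1460644_at) was at 468, 471 and 504 on the vehicle arrays and at 477, 521 and 498 on the rapamycin arrays. The groups overlapped, with a log2 change of 0.05 (SE 0.06, 95% interval -0.07 to 0.18). A second Bckdk probe set, 1443813_x_at, whose suffix marks probes that can hybridise to other transcripts, gave -0.06. Ppm1k (1452973_at) was at 114, 108 and 118 with vehicle and at 112, 110 and 98.9 with rapamycin, a log2 change of -0.08 (SE 0.06, 95% interval -0.22 to 0.06). Its second probe set gave 0.11. Both Ppm1k probe sets were close to the array medians on all 12 arrays, and no detection calls were used, so Ppm1k may be near background. The transcript of the complex's kinase was thus measured with an interval that leaves out changes as large as those of Bckdha, Bckdhb and Dbt.

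Of the transaminases, Bcat1 fell in all 3 of its probe sets. By the brightest (1450871_a_at) it was at 1526, 1545 and 1532 on the vehicle arrays and at 759, 800 and 718 on the rapamycin arrays. The log2 change was -1.02 (SE 0.06, 95% interval -1.14 to -0.89), the 42nd lowest of all genes. The other probe sets gave -0.74 (SE 0.06; 1430111_a_at) and -0.31 (SE 0.06; 1455699_at), so they shared the direction but not the size. Bcat1 stayed past the threshold in all 13 alternative fits. Bcat2 (1425764_a_at) was at 159, 160 and 177 with vehicle and at 139, 160 and 139 with rapamycin. Rapamycin replicate 2 reached the vehicle level, and the log2 change of -0.18 (SE 0.07, 95% interval -0.33 to -0.03) did not pass the threshold after adjustment. Without rapamycin replicate 2 the Bcat2 change was -0.25 and passed.

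Of the leucine enzymes, Mccc2 fell and the other 2 did not pass. Ivd, which dehydrogenates isovaleryl-CoA, was at 413, 425 and 425 with vehicle and at 381, 401 and 411 with rapamycin by 1418238_at. Every rapamycin array was below every vehicle array, but the log2 change of -0.08 (SE 0.05) did not pass, and the second probe set gave -0.01 with overlapping groups. Mccc1 and Mccc2 encode the chains of methylcrotonyl-CoA carboxylase, a biotin enzyme. Mccc1 (1417227_at) was at 258, 274 and 249 with vehicle and at 279, 271 and 283 with rapamycin, a log2 change of 0.09 (SE 0.06), and its second probe set gave 0.06. Mccc2 (1454840_at) was at 354, 363 and 341 with vehicle and at 278, 321 and 309 with rapamycin, a log2 change of -0.22 (SE 0.06). This fall was small and depended on single arrays: it did not pass without vehicle replicate 1 (-0.22), vehicle replicate 2 (-0.20) or rapamycin replicate 1 (-0.16), and the other Mccc2 probe sets gave -0.10 and 0.02, neither past the threshold.

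**Figure D2:**
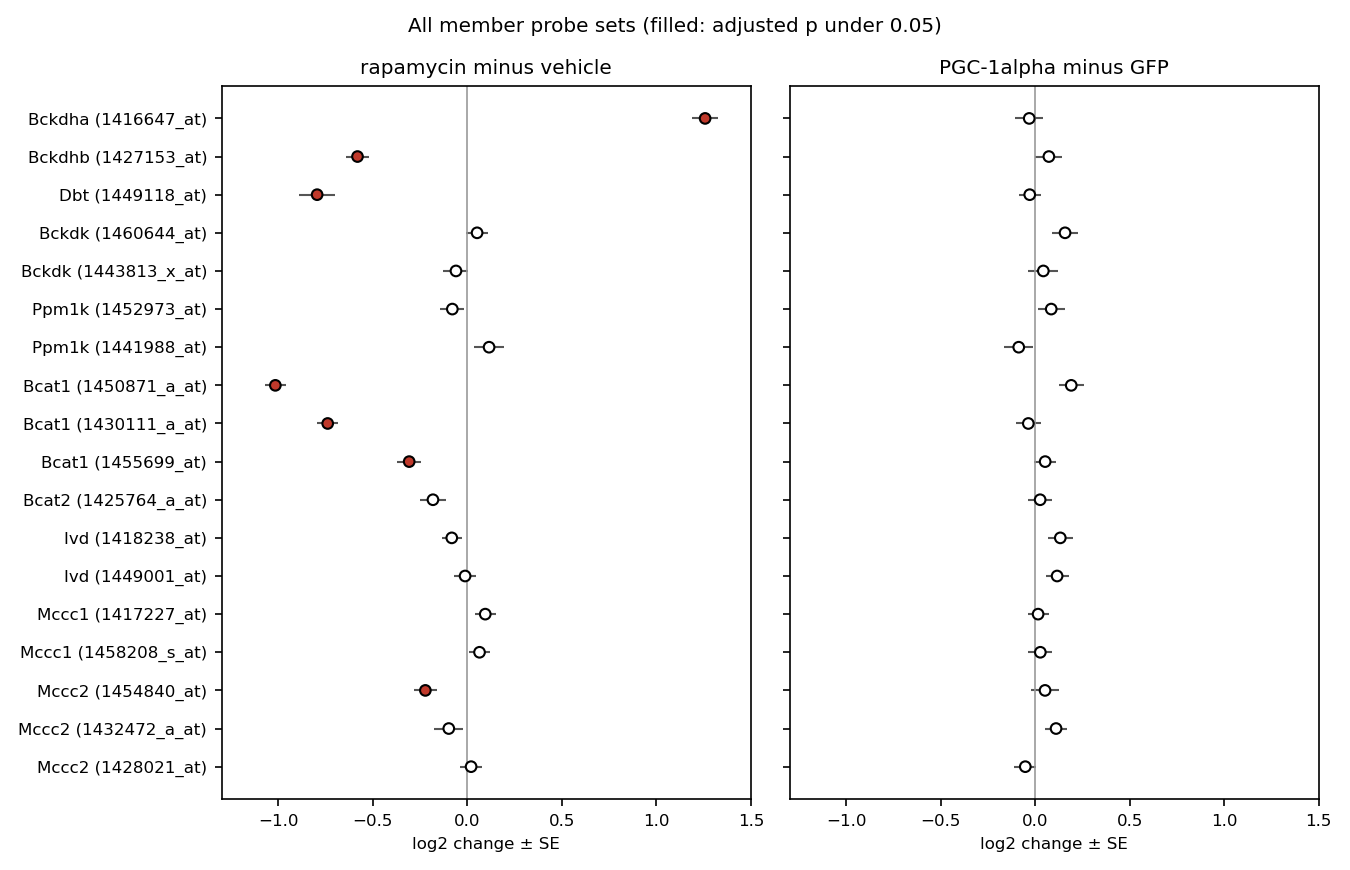
Log2 change (horizontal axis, with SE bars) of all 18 probe sets of the 10 genes for rapamycin minus vehicle (left) and PGC-1alpha minus GFP (right), with filled points where the adjusted p was under 0.05. On the left 7 probe sets are filled, those of Bckdha, Bckdhb and Dbt, all 3 of Bcat1 and 1 of Mccc2, and on the right 0 are.

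PGC-1alpha left the 10 genes within a narrow range. By limma 0 of 18 probe sets passed the adjusted threshold, against 0.997% of all probe sets that rose and 0.955% that fell. Among genes 1.41% rose and 0.594% fell at that threshold. At an unadjusted p under 0.05, 2 of the 18 were raised, those of Bckdk and Bcat1. No share of all probe sets was taken at the unadjusted level. The changes of the 18 probe sets ran from -0.09 to 0.19 and their median was 0.05. Members of these counts were chosen with the values known, as above.

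The subunits of the complex stayed near their GFP levels. Bckdha was at 151, 140 and 170 on the GFP arrays and at 151, 154 and 144 on the PGC-1alpha arrays, a log2 change of -0.03 (95% interval -0.19 to 0.13). Bckdhb was at 494, 446 and 538 with GFP and at 514, 507 and 528 with PGC-1alpha, a change of 0.07 (95% interval -0.08 to 0.23). Dbt was at 246, 239 and 252 with GFP and at 238, 250 and 235 with PGC-1alpha, a change of -0.03 (95% interval -0.15 to 0.10). In all 3 the groups overlapped, and the intervals leave out a change the size of that gene's rapamycin change.

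Bcat1 and Bckdk had the largest changes of the 10 with PGC-1alpha. Bcat1 was at 1401, 1443 and 1622 on the GFP arrays and at 1731, 1686 and 1670 on the PGC-1alpha arrays by its brightest probe set, a log2 change of 0.19 (SE 0.07). The groups did not overlap, but the other probe sets gave -0.04 and 0.05. Bckdk was at 376, 381 and 439 with GFP and at 462, 441 and 429 with PGC-1alpha, a change of 0.16 (SE 0.07). GFP replicate 3 was the highest GFP array for both genes. Without it both passed the threshold, with Bcat1 at 0.25 and Bckdk at 0.23, and the counts of calls over all probe sets went from 449 to 1957 raised and from 430 to 880 lowered. The other members, Ppm1k (0.08), Bcat2 (0.03), Ivd (0.13), Mccc1 (0.02) and Mccc2 (0.05), did not pass with or without that array.

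The 2 effects were also set against each other in a fit of all 12 arrays, in which the experiments share no control array. The rapamycin change exceeded the PGC-1alpha change by 1.29 (SE 0.10) for Bckdha. It was lower by a log2 difference of -1.21 (SE 0.09) for Bcat1, -0.77 (SE 0.12) for Dbt and -0.65 (SE 0.10) for Bckdhb. All 4 differences passed the adjusted threshold, in the fit of all arrays and in its 16 alternatives. The genes were chosen with these changes known and the alternatives refit the same arrays, so these calls too are a description. The differences of the other 6 genes, from -0.27 for Mccc2 to 0.08 for Mccc1, did not pass. Mccc2 passed without rapamycin replicate 2, GFP replicate 1 or GFP replicate 3, Bcat2 without rapamycin replicate 2, and Ivd without GFP replicate 3.

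The dehydrogenase was then placed beside its sister complexes, through a list of 14 genes of the pyruvate, oxoglutarate and oxoadipate dehydrogenases with their kinases and phosphatases. With rapamycin 3 of the 14 rose, 6 fell and 5 did not pass, against 11.3% of all genes that rose and 18% that fell. The transacylase cores fell, as Dbt did: Dlat of the pyruvate complex by 0.31 (SE 0.06, adjusted p = 0.000795) and Dlst of the oxoglutarate complex by 0.29 (SE 0.05) on the log2 scale. Pdhx, which anchors the shared Dld chain to the pyruvate complex, fell by 0.59 (SE 0.07, adjusted p = 3.54e-05). Ogdh, the oxoglutarate decarboxylase, fell by 0.55 (SE 0.06, adjusted p = 1.58e-05), from 749, 790 and 743 with vehicle to 490, 552 and 514 with rapamycin. Dlat, Dlst and the pyruvate decarboxylase chains were singled out after their values were seen, as the counterparts of Dbt, Bckdha and Bckdhb. The chains Pdha1 (-0.07) and Pdhb (-0.04) did not pass, in contrast to the opposed calls of Bckdha and Bckdhb; this contrast between complexes was not tested, and under the bacterial scaling Pdha1 (-0.26) and Pdhb (-0.22) fell. Of the kinases of the pyruvate complex, Pdk1 fell by 0.75 (SE 0.07, adjusted p = 3.81e-06) and Pdk3 by 0.36 (SE 0.06), Pdk2 rose by 0.27 (SE 0.05), and Pdk4 rose by 0.17 (SE 0.05), a rise that turned to -0.015 under the bacterial scaling. Pdk4 also did not pass when any 1 array other than rapamycin replicate 1 was left out, and Pdk2 did not under the bacterial scaling (0.083). Pdk2 (48.6 to 62.5 in this experiment) and Pdk4 (31.4 to 38.1) were below the array medians on all its arrays. Pdpr, a regulatory subunit of the pyruvate dehydrogenase phosphatase, rose by 0.89 (SE 0.07, adjusted p = 9.58e-07), in all 4 of its probe sets (0.22 to 0.89). The median change of the 14 genes was -0.15.

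With PGC-1alpha the sister complexes showed calls where the branched-chain complex had none. Ogdh rose by 0.43 (SE 0.07, limma adjusted p = 0.00696), from 705, 663 and 784 with GFP to 940, 975 and 974. Dlat rose by 0.37 (SE 0.08, adjusted p = 0.0436) and Pdhx by 0.30 (SE 0.07, adjusted p = 0.0488). Pdpr fell by 0.44 (SE 0.06, adjusted p = 0.00308), but its 4 probe sets ran from -0.53 to 0.13, and it did not pass by their median (-0.015) or under the bacterial scaling (-0.28). So 3 of the 14 sister genes rose and 1 fell, against 1.41% and 0.594% of all genes. The median change was 0.15, against 0.01 over all genes. The count that rose moved with single arrays: it was 4 without GFP replicate 3, 0 without PGC-1alpha replicate 3, and 1 when any of the other 4 arrays was left out. Whether the sister complexes and the branched-chain complex differ in their response was not tested.

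**Figure D3:**
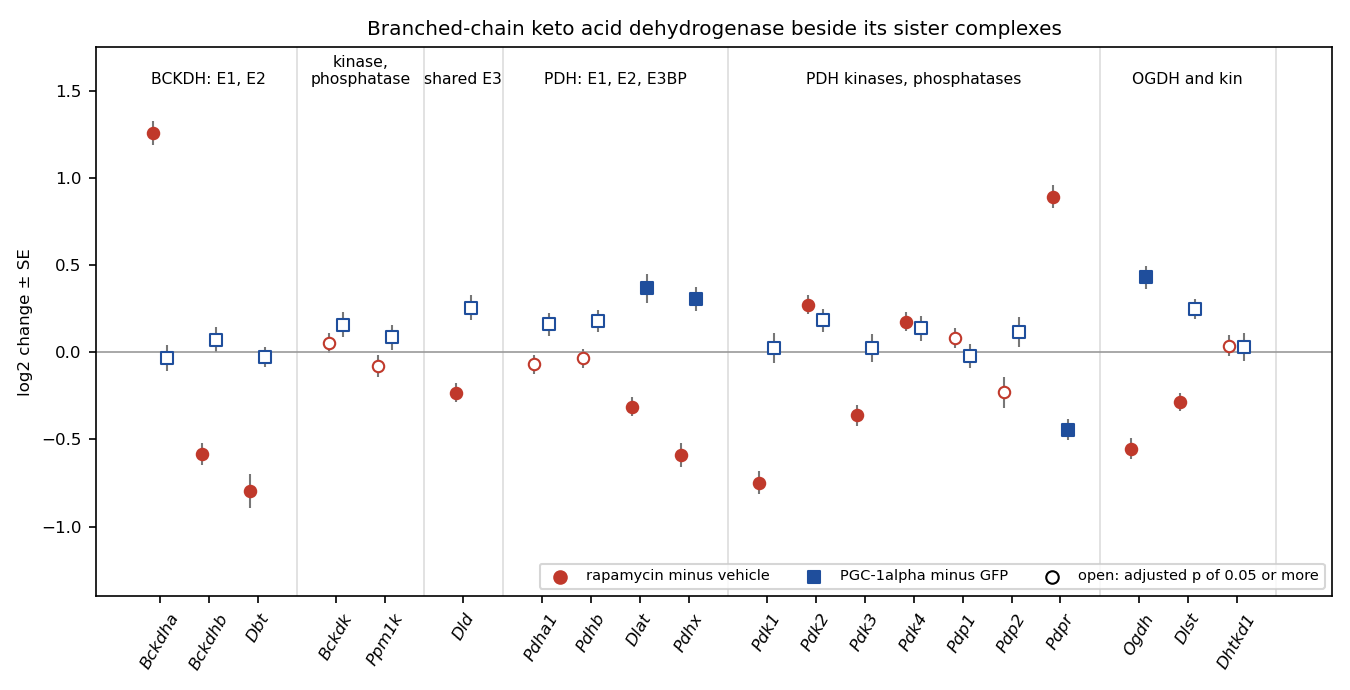
Log2 change with SE (vertical axis) by the brightest probe set for the genes of the branched-chain keto acid dehydrogenase (BCKDH) and of the pyruvate (PDH) and oxoglutarate (OGDH) complexes, as circles for rapamycin minus vehicle and squares for PGC-1alpha minus GFP; open symbols did not pass the threshold. Bckdha at 1.26 lies far above Bckdhb and Dbt with rapamycin, and the filled squares are those of Dlat, Pdhx, Ogdh and Pdpr.

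Upstream of the transaminases, a list of 7 carriers of large neutral amino acids was measured. With rapamycin 2 of the 7 fell and 0 rose by limma, against 18% and 11.3% of all genes. At an unadjusted p under 0.05, 0 were raised. Slc7a5, the light chain of the LAT1 exchanger that brings leucine into the cell, was at 1349, 1312 and 1418 with vehicle and at 551, 690 and 611 with rapamycin. Its log2 change was -1.15 (SE 0.07, adjusted p = 4.31e-07). Slc3a2, the heavy chain that carries Slc7a5 to the membrane, fell by 0.58 (SE 0.07, adjusted p = 2.27e-05). Under the bacterial scaling 6 of the 7 fell, but that scaling also lowered many more of all probe sets, as counted above. With PGC-1alpha 0 of the 7 passed the limma threshold, against 1.41% of all genes that rose and 0.594% that fell. At an unadjusted p under 0.05, 2 were raised, and no share of all genes was taken at that level. Slc7a5 had a change of 0.27 (adjusted p = 0.0689) and passed without GFP replicate 3 (0.31), with dim probe sets left out (adjusted p = 0.0419) and with p-values over genes in the fit of median probe sets (adjusted p = 0.0498), but not in the other 10 alternatives. Slc43a1, another large neutral amino acid carrier, had a change of 0.24 (adjusted p = 0.148).

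Downstream and beside the members, 18 of 19 further genes of the route were measured, from the shared Dld chain and the mitochondrial carrier Slc25a44 to the propionyl-CoA enzymes. With rapamycin 6 of the 18 rose, 4 fell and 8 did not pass, against 11.3% of all genes that rose and 18% that fell. Their median change was -0.01. Aldh6a1, which makes propionyl-CoA from the last valine intermediate, had the largest change of the 18. It was at 179, 171 and 155 with vehicle and at 312, 340 and 342 with rapamycin, a log2 change of 0.98 (SE 0.07, adjusted p = 5.14e-07) by its 1 probe set. By the brightest probe sets propionyl-CoA carboxylase split between its chains. Pccb rose by 0.22 (SE 0.06, adjusted p = 0.0137), and Pcca fell by 0.20 (SE 0.06, adjusted p = 0.0345). The other of 2 Pcca probe sets gave 0.05. Pcca did not pass by their median (-0.07) or with quantile normalization over 12 arrays (-0.16). The enzymes after the carboxylase, Mcee (0.25, SE 0.06) and Mmut (0.28, SE 0.06, adjusted p = 0.00256), which turn methylmalonyl-CoA into succinyl-CoA, rose. Auh of the leucine branch also rose (0.24, SE 0.06). It did so in 2 of its 6 probe sets (-0.02 to 0.31), and it did not pass by their median (0.11). Dld fell by 0.23 (SE 0.06, adjusted p = 0.00728), Slc25a44 by 0.21 (SE 0.06) and Acaa2 by 0.17 (SE 0.06). The other of 2 Dld probe sets gave -0.02, and Dld did not pass by their median (-0.13). Of 3 Slc25a44 probe sets 2 fell, and the 3 ran from -0.21 to 0.13. The small changes were open to the processing. The falls numbered 0 when all 12 arrays were quantile normalised together and 1 without vehicle replicate 3. They numbered 2 without vehicle replicate 1, vehicle replicate 2 or rapamycin replicate 3. Under the bacterial scaling 1 gene, Aldh6a1, rose and 8 fell, but that scaling also lowered many more of all probe sets.

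With PGC-1alpha 6 of the 18 were raised and 0 lowered by limma at an unadjusted p under 0.05. No share of all genes was taken at that level, so the count has no background. Past the adjusted threshold 1 of the 18 rose and 0 fell, against 1.41% and 0.594% of all genes. The 1 was Hibadh, the hydroxyisobutyrate dehydrogenase of the valine branch, at 516, 506 and 580 with GFP and at 682, 642 and 649 with PGC-1alpha. Its change was 0.30 (SE 0.07, adjusted p = 0.0387). It did not pass when any 1 array other than GFP replicate 3 was left out, where its adjusted p ran from 0.114 to 0.176. Without GFP replicate 3 the count was 5: Hibadh (0.36), Acat1 (0.34), Dld (0.33), Aldh6a1 (0.30) and Echs1 (0.26). Leaving out that array also raised the counts over all probe sets, as given above. Changes were above 0 for 14 of the 18 genes, against 9728 of all 18193 genes. The median was 0.11, against 0.01 over all genes. These counts are by the brightest probe sets. Of 3 Slc25a44 probe sets 1, not the brightest, fell past the threshold (lowest change -0.36).

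**Figure D4:**
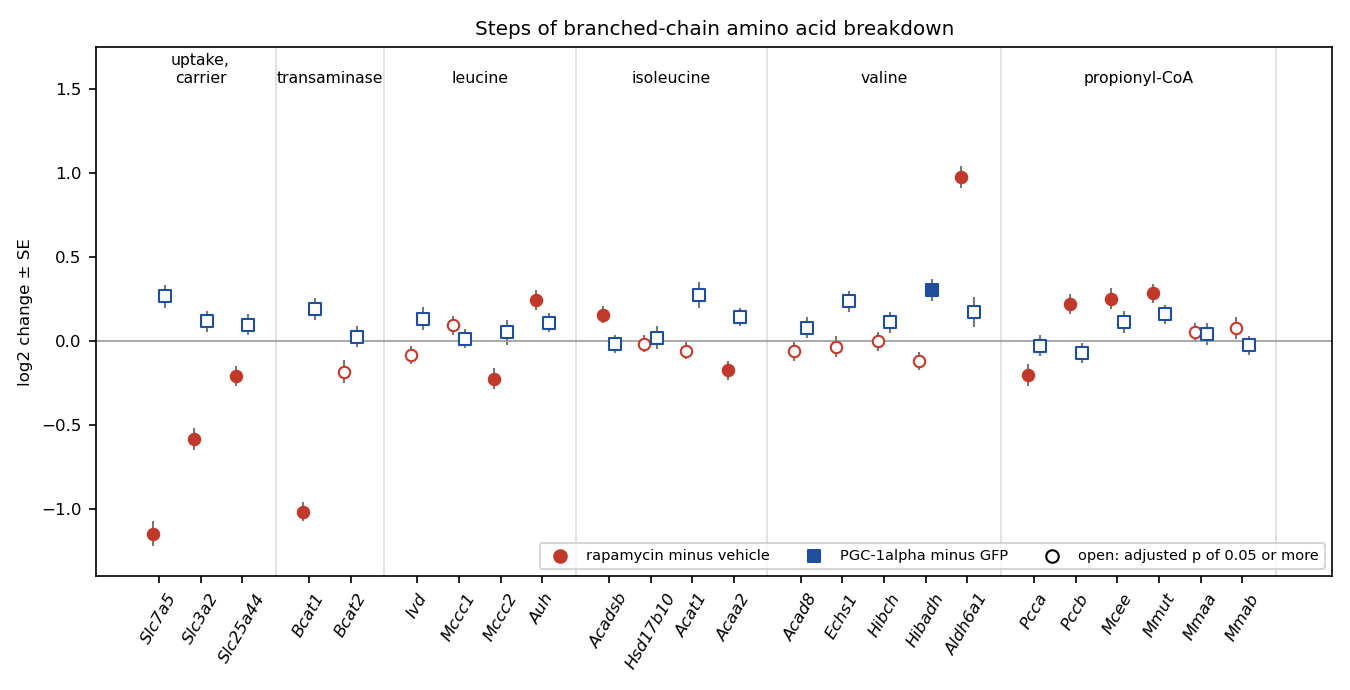
Log2 change with SE (vertical axis) by the brightest probe set along the steps of branched-chain amino acid breakdown other than the keto acid dehydrogenase, as circles for rapamycin minus vehicle and squares for PGC-1alpha minus GFP; open symbols did not pass the threshold. Among the genes plotted, Slc7a5 and Bcat1 lie lowest and Aldh6a1 highest with rapamycin, and Hibadh has the only filled square.

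Mccc1 and Mccc2 belong to the biotin-dependent enzymes, of which 6 of 7 other listed genes were measured. With rapamycin Acaca, acetyl-CoA carboxylase of fatty acid synthesis, fell by 0.43 (SE 0.05, adjusted p = 5.55e-05), beside Pcca and Pccb above, and the other 3 did not pass. Pccb did not pass without vehicle replicate 3 or under the bacterial scaling, and Pcca did not without vehicle replicate 1, vehicle replicate 3 or rapamycin replicate 3. With PGC-1alpha 0 of the 6 passed by limma, and 0 did at an unadjusted p under 0.05. Pccb (-0.07, adjusted p = 0.756) and Btd, the enzyme that recycles biotin (-0.08, adjusted p = 0.767), had the smallest p-values.

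Of 12 transcription factors and coactivators linked to these genes or to the study's question, 3 rose and 2 fell with rapamycin by the brightest probe sets. Among all genes 11.3% rose and 18% fell. Yy1 and Ppargc1a, named here for the study's question, did not pass by that probe set (-0.11 and -0.13). Yet 3 of 4 Yy1 probe sets fell (lowest -0.56), and so did 3 of 5 Ppargc1a probe sets (lowest -0.35). By the median of its probe sets Yy1 passed, at -0.52. Atf4, which drives amino acid synthesis and uptake genes, fell by 0.56 (SE 0.05, adjusted p = 6.04e-06), from 3666, 3624 and 3586 to 2431, 2561 and 2380. Nrf1, a factor for mitochondrial genes, fell by 0.40 (SE 0.06, adjusted p = 0.000138). Foxo3, a forkhead factor restrained by growth signals, rose by 0.47 (SE 0.07, adjusted p = 0.000124), Myc by 0.24 (SE 0.07, adjusted p = 0.0184) and Foxo1 by 0.20 (SE 0.06, adjusted p = 0.0167). Under the bacterial scaling 1 of the 12 rose, Foxo3, and 7 fell, while that scaling also lowered many more of all probe sets. Myc did not pass without vehicle replicate 2 (0.24), vehicle replicate 3 (0.19) or rapamycin replicate 2 (0.19), and Foxo1 did not without vehicle replicate 1 (0.17) or rapamycin replicate 3 (0.17). Nrf1 did not pass by the median of its probe sets (-0.07). With PGC-1alpha 2 of the 12 rose, against 1.41% of all genes. These were Ppargc1a itself, by 4.74 (SE 0.09), and Esrra, a nuclear receptor partner of PGC-1alpha, by 0.36 (SE 0.06, adjusted p = 0.0108). Esrra did not pass without GFP replicate 1 (0.33) or PGC-1alpha replicate 2 (0.32). The Ppargc1a rise was seen by 1 of its 5 probe sets.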

How the data were processed

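The deposited values are intensity values per probe set, made by the authors with RMA at default settings in BioConductor 1.2, separately for the rapamycin and the PGC-1alpha experiment, per the labels and the design text. Whether the deposited intensity is linear is not stated; from its range, 9.3 to 21072, it was taken as linear, and log2 was computed without a pseudocount. RMA makes the arrays of an experiment alike in distribution, so changes are relative to the other probe sets, and 3 arrays a group limit the precision. The p-values set a change against the spread between these triplicates, with limma drawing each probe set's variance towards that of all probe sets.

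Of 45101 probe sets, 64 controls were left out. The platform annotation gave 1 symbol for 34945 of the rest, several for 932 and no listed symbol for 9160. For 34741 of those with 1 symbol the Entrez ID was found in a RefSeq table (GRCm38.p6). The 6 arrays of each comparison were fitted with limma 3.58.1 (lmFit, eBayes; R 4.3.3), two-sided, with the Benjamini-Hochberg threshold at 0.05, and the fit was tested on simulated data. Tables and figures were made with Python 3.11.15, pandas 2.3.3 and matplotlib 3.10.9. Replicate numbers did not pair the arrays.

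The 10 members, the gene lists and the tests were chosen with earlier results of these data known. Counts at an unadjusted p under 0.05 have no background, since no share of all genes was taken at that level. Named beside the members were, per list and comparison, up to 4 genes past the threshold with the largest change in each direction, or the 2 of smallest p if none passed, and other genes only where the text says so. Alternatives were a replicate block, a filter on dim probe sets, scaling on bacterial control probe sets, quantile normalization over 12 arrays, log2(intensity + 16), an intensity trend, the median of a gene's probe sets, and leaving out each array.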

Additional observations from a re-analysis of the deposited data

How the results depend on the processing

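The rise of Bckdha and the falls of Bckdhb, Dbt and Bcat1 with rapamycin held in all 13 alternatives. Scaling on the bacterial control probe sets, which are not RNA of the cells, moved the median of all probe sets from -0.0014 to -0.19 with rapamycin and to 0.16 with PGC-1alpha. It changed the rapamycin counts over all probe sets to 1448 raised and 18556 lowered, and those with PGC-1alpha to 296 and 29. Under it, with rapamycin, 7 member genes fell instead of 4, adding Ppm1k (-0.27), Bcat2 (-0.37) and Ivd (-0.27), with Bckdha at 1.07; 1 further pathway gene rose and 8 fell; Acadsb (-0.032), named here for that reason, and Pdk4 (-0.015) changed sign. Of the carriers 6 fell and of the factors 7 fell and 1 rose, and of the sister genes 1 rose. The difference between the effects was lower for 8 member genes under it, against 3, and the number ran from 3 to 5 when arrays were left out. With rapamycin the falls among the further pathway genes numbered 0 with quantile normalization over 12 arrays, 2 with the median of a gene's probe sets, and 1 to 3 when arrays were left out. With PGC-1alpha 0 of the further pathway genes rose under the bacterial scaling or log2(intensity + 16), 2 with the median of probe sets and 0 to 5 when arrays were left out; 0 to 2 members rose. Over all probe sets, leaving out arrays gave 113 to 1957 raised and 166 to 880 lowered with PGC-1alpha. The replicate block gave 5128 raised and 6243 lowered probe sets with rapamycin and 436 and 395 with PGC-1alpha; same-numbered arrays did not deviate together (correlations -0.13 to 0.23). No detection calls were used, so dim probe sets such as those of Ppm1k, Pdk2 and Pdk4 are the least certain.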

Other observations

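The genes next to the members in the RefSeq order were read after the members' values were seen, as values only, for rapamycin. Beside Bckdha, which rose, Exosc5, a subunit of the RNA exosome, had a log2 change of 0.34 (SE 0.06, limma adjusted p = 0.000776) and B3gnt8 one of -0.02 (adjusted p = 0.868). Beside Bckdhb, which fell, the mitotic kinase Ttk had a change of -0.74 (SE 0.06, limma adjusted p = 1.46e-06) and Tent5a one of -0.27 (adjusted p = 0.00632). Beside Dbt, which fell, the RNA cyclase gene Rtca had a change of -0.49 (SE 0.07, limma adjusted p = 0.000109) and Lrrc39 one of 0.12 (adjusted p = 0.214). Next to Bcat1, which fell, Sox5 had a change of 0.10 and Lrmp one of -0.05, neither past the threshold. Next to Bckdk, which did not pass, Vkorc1 had a change of 0.52 (limma adjusted p = 3.44e-05) and Kat8 one of 0.04. Of the measured genes next to Ppm1k, Bcat2, Ivd, Mccc1 and Mccc2, only Knstrn, beside Ivd, passed, with a change of -0.16 (limma adjusted p = 0.0302). Among all genes 11.3% rose and 18% fell. Whether members move with their neighbours was not tested. Tsc2, read by 1452105_a_at, was at 248, 259 and 278 on vehicle arrays and at 182, 217 and 196 on rapamycin arrays, above array medians of 77.5 to 81.0, with a change of -0.40 (SE 0.07, limma adjusted p = 0.000785) with rapamycin. All cells were labelled TSC2-/- and no wild-type cells were analysed here; whether the probes lie inside the deleted part is not stated, so this signal checks nothing about the genotype.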
